A study of Mus musculus with 19 samples.

Results

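The genes described here are 34 genes of fatty acid oxidation and ketogenesis in mouse liver, from the transcription factor PPAR-alpha (Ppara) to the carriers, enzymes and fasting-responsive genes that it is known to control. They come from a list of gene names, drawn up with earlier results of these data known. Each gene was read from the probe set that carries only its symbol and has the highest mean over all arrays. Such a probe set was used for 33 of the 34, since the one for Cyp4a10 also names Cyp4a31. Of these, 32 were over a log2 level of 4 on at least 4 arrays and were tested, among 8515 genes tested in all. The remaining gene, Fgf21, a hormone that the fasting liver secretes, read between 2.12 and 3.70 on the 19 arrays and was not tested.

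RNA from 19 livers of male C57BL/6 mice, 10 to 12 weeks old, was measured on Affymetrix 3' expression arrays, 1 array per mouse. All 4 groups had 85% of the liver removed and were killed 2 h later, so every group shares the resection and no unresected liver was analysed here. The groups were wild type (WT, n = 5), mice null for Ager, which encodes the receptor RAGE (n = 6), mice null for Myd88, the adaptor of most Toll-like receptors and of the IL-1 receptor (n = 4), and mice null for both Ager and Myd88 (double null, n = 4). The labels give the alleles only as null, with no promoter or cell type, and give free access to chow. Values are log2 expression, differences are log2 differences with the standard error of the limma fit, while group means carry SDs.

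In the fed liver, fatty acids are mostly stored or exported. In fasting, PPAR-alpha, a nuclear receptor that binds DNA together with RXR and is switched on by fatty acids, raises the genes for their uptake, for the carnitine shuttle that moves them into mitochondria, for beta-oxidation there and in peroxisomes, and for ketone bodies. PGC-1-alpha (Ppargc1a) is its coactivator. After partial hepatectomy the remnant takes up fat released from adipose tissue, which the same enzymes can burn.

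PPAR-alpha and RXR bind a direct repeat of the half-site AGGTCA with 1 base between the copies, so the window from 250 bases before to 50 bases after each gene's start was searched on both strands for AGGTCA, any base and AGGTCA again. Windows from RefSeq (mouse build GRCm38.p6) were at hand for 27 of the 34 genes, not for Acaa2, Decr1, Hsd17b4, Cyp4a10, Cyp4a14, Angptl4 and Vnn1. With up to 2 mismatches, 3 of the 27 held a match (11.1%), against 4.4% of all 27025 windows. With up to 1 mismatch it was 1 of 27 (3.7%) against 0.644%. The matches are shown because they lie before or at the start of a fatty acid binding protein, an electron carrier and the carnitine carrier, whose levels follow. Capitals mark the whole matched site, including its mismatched bases and the 1 base between the copies. Fabp1 lies at chr6:71199792-71199844 on the plus strand, with 1 mismatch to the motif read on the opposite strand, 67 bases before the start. Etfa lies at chr9:55512288-55512340 on the minus strand, with 2 mismatches on the opposite strand, 77 bases before the start. Slc25a20 lies at chr9:108662142-108662154 on the plus strand, with 2 mismatches on the same strand, 6 bases after the start.
Fabp1: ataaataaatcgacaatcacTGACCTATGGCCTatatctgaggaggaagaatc
Etfa: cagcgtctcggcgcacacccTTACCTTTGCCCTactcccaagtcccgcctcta
Slc25a20: AGGTGAAAGGTCG
A match describes letters in a window and is not a measured binding site.

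The tissue label is liver, but the described RNA isolation refers to glomeruli. All 11 hepatocyte markers with a probe set were over log2 4 on every array (mean level 14.26 to 14.53), and 0 of 11 kidney and glomerulus markers were. Correlations between arrays lay between 0.948 and 0.993, and Myd88 null 4 stood apart with a median of 0.965 against 0.979 or more for the others. Its Kupffer cell and macrophage markers averaged 6.68 against 8.01 to 9.22 in the other 18 livers, with 9 of 12 such markers over log2 4 on every array and their part in the results was not tested. The sample descriptions carry an S number of unstated meaning. All 6 Ager null arrays lie in S 13 to 20 together with WT 5 and Myd88 null 4, so the S range and the Ager null group can hardly be told apart. The arrays are of whole tissue, so fewer cells of a type and less RNA per cell cannot be told apart.

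At 2 h after resection none of the 32 tested genes passed the test in any comparison of genotypes. Ager null against WT called 0 of 32 with limma at an adjusted p under 0.05, where 1.26% of all tested genes were called. Myd88 null against WT called 0 of 32 (background 0.399%), double null against WT 0 of 32 (0.317%), double null against Ager null 0 of 32 (2.44%), double null against Myd88 null 0 of 32 (0.153%) and Ager null against Myd88 null 0 of 32 (1.26%). The interaction, which subtracts the difference between Myd88 null and WT from that between double null and Ager null, also called 0 of 32, where 2.41% of all tested genes were called. These 7 comparisons share groups and are not independent of each other. Shares this low leave little room for a count above 0 in a list of 32.

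At an unadjusted p under 0.05 the counts stood near the background in Ager null against WT, with 9 of 32 (28.1%) against 21.6% of all genes. In the others they were at or below it, with 2 of 32 in Myd88 null against WT (19.6% of all genes), 0 in double null against WT (8.57%), 3 in double null against Ager null (22.7%), 1 in double null against Myd88 null (16.1%) and 4 in Ager null against Myd88 null (15.9%). In the interaction 5 of 32 passed, all negative (15.6%, with 15.6% of all tested genes passing in that direction). Groups did not overlap for 2 genes in Ager null against WT (3.7% of all genes), 1 in double null against Ager null (8.39%) and 2 in Ager null against Myd88 null (3.92%). They overlapped for every one of the 32 in Myd88 null against WT, double null against WT and double null against Myd88 null (4.52%, 3.81% and 5.91% of all genes apart).

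The median difference of the 32 genes was close to that of all tested genes. It was 0.02 in Ager null against WT (all genes 0.02), 0.04 in Myd88 null against WT (0.07), -0.01 in double null against WT (0.07) and -0.07 in double null against Ager null (0.04). The interaction had a median of -0.18 against -0.02 over all genes, but 0.04 with the S range as a block, so its direction was not settled. The mean level of the 32 genes was 11.50 ± 0.09 in WT (SD, n = 5), 11.51 ± 0.10 in Ager null (n = 6), 11.59 ± 0.32 in Myd88 null (n = 4) and 11.40 ± 0.20 in double null (n = 4), given as a description. The Myd88 null livers were the most scattered, from 11.23 to 12.00.

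The intervals show what sizes of difference these arrays leave possible. In Ager null against WT the 95% interval lay within 2-fold in either direction for 27 of 32 genes (84.4%, against 88.9% of all tested genes) and within 1.5-fold for 19. In Myd88 null against WT it was within 2-fold for 25 and within 1.5-fold for 21, and in double null against WT for 26 and 23. Etfa, the alpha subunit of the electron transfer flavoprotein, had the interval -0.14 to 0.14 in Ager null against WT, and Fabp1, the main fatty acid binding protein of hepatocytes, -0.27 to 0.03. The interval reached past 2-fold on at least 1 side for regulators and inducible genes such as Pdk4 (-2.72 to 1.01) and Ppargc1a (-1.02 to 1.89). For these a difference of over 2-fold in that direction stayed possible with this number of arrays.

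**Figure D1:**
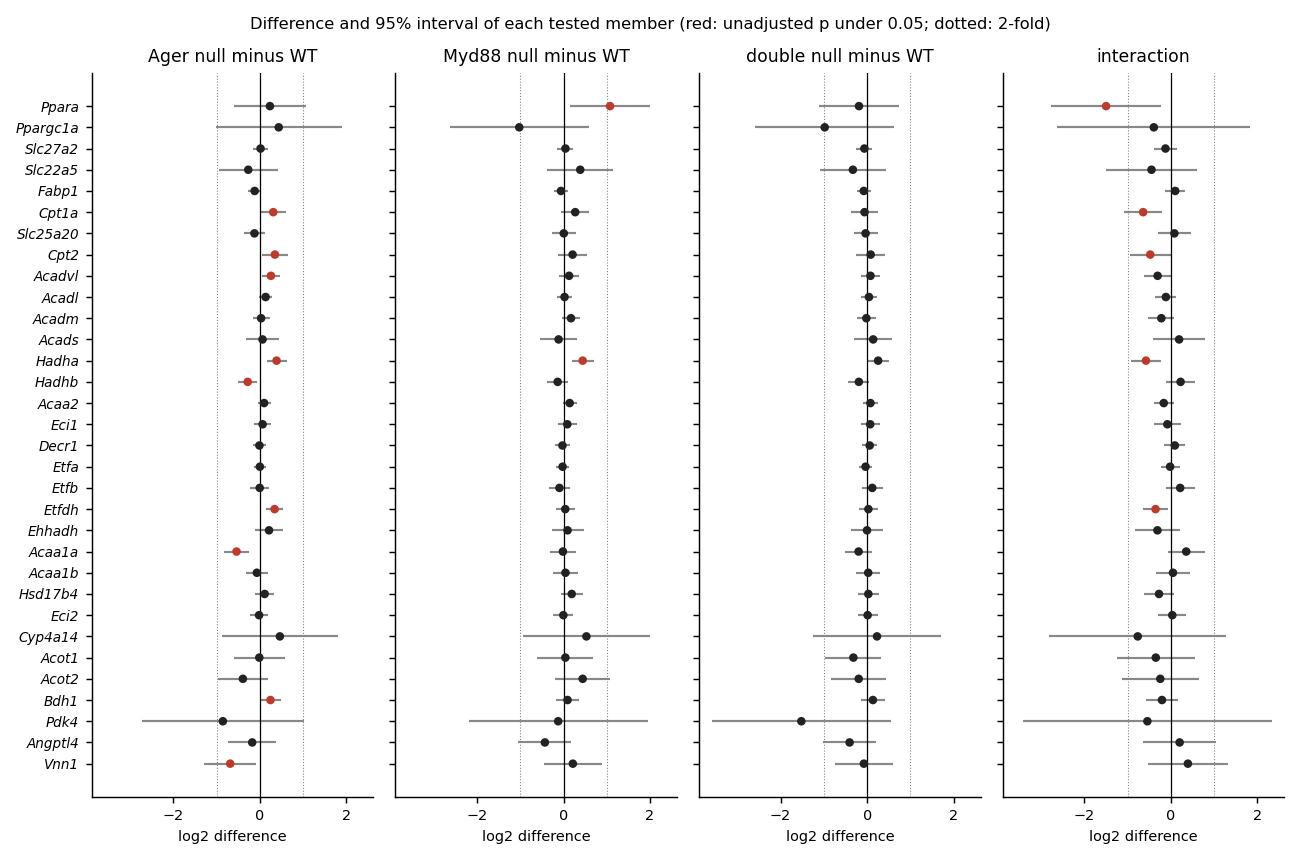
Log2 difference (x axis) of each of the 32 tested genes (y axis, in order of role) in 3 comparisons with WT and in the interaction; points are estimates, bars 95% intervals, dotted lines 2-fold, and red marks an unadjusted p under 0.05. Enzyme genes have short bars near 0, while Ppargc1a, Cyp4a14 and Pdk4 have the longest, and 0 of 32 passed after adjustment.

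Of the regulators, Ppara read 10.42, 10.06, 10.07, 10.11 and 8.31 in WT 1 to 5. In Ager null it ran from 9.33 over a median of 10.07 to 10.50. It was 10.36, 11.06, 10.77 and 11.29 in Myd88 null 1 to 4 and 10.47, 10.48, 9.15 and 8.32 in double null 1 to 4. WT 5 and double null 4 were the lowest livers, 3 of 4 Myd88 null livers were above every other liver, and all groups overlapped. Ppara differed by 1.08 ± 0.44 in Myd88 null against WT (adjusted p = 0.195) and by 0.71 without WT 5 (adjusted p = 0.354). Double null against Myd88 null gave -1.26 ± 0.46 (adjusted p = 0.244). All 3 probe sets of Ppara had similar differences for Myd88 null against WT, at 1.08, 1.08 and 1.07.

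Ppargc1a, the coactivator that fasting and glucagon induce, read 9.08, 7.96, 10.68, 10.04 and 8.56 in WT. In Ager null it ran from 8.59 over a median of 9.99 to 10.40. It was 7.43, 8.28, 6.44 and 10.81 in Myd88 null and 9.73, 9.14, 7.23 and 7.02 in double null. Livers of 1 genotype thus differed by over 4 log2 units in Myd88 null, where liver 4 was the highest of all 19, and the groups overlapped. The differences were 0.43 ± 0.69 in Ager null, -1.02 ± 0.77 in Myd88 null and -0.98 ± 0.77 in double null, each against WT (adjusted p = 0.747, 0.47 and 0.771). Without Myd88 null 4 the difference of Myd88 null was -1.88. The other 4 probe sets gave -0.16, 0.05, -0.03 and -0.12 for Ager null against WT, so the sign there depended on the probe set.

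The uptake and binding genes are Slc27a2, a very long-chain acyl-CoA synthetase and transporter, Slc22a5, the carnitine importer, and Fabp1. Fabp1 had 15.54 ± 0.08 in WT (SD, n = 5), 15.42 ± 0.09 in Ager null (n = 6), 15.48 ± 0.05 in Myd88 null (n = 4) and 15.46 ± 0.07 in double null (n = 4). Its level reached 15.62, the highest value on any array, and a ceiling of the array at this level was not tested. Slc27a2 lay between 13.73 and 14.08 over the 19 livers. Slc22a5 spread further, from 7.38 to 9.47, with a difference of -0.72 ± 0.38 between double null and Myd88 null (unadjusted p = 0.076 with limma).

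In the carnitine shuttle, Cpt1a makes acylcarnitines at the outer mitochondrial membrane, Slc25a20 carries them across the inner one and Cpt2 turns them back into acyl-CoA. Cpt1a read 10.91, 10.64, 11.27, 11.14 and 11.07 in WT, and in Ager null ran from 11.11 over a median of 11.31 to 11.55. It was 10.78, 11.37, 11.50 and 11.44 in Myd88 null and 11.14, 10.84, 10.88 and 10.92 in double null. Myd88 null 1 sat with the low double null livers while the other 3 Myd88 null livers were at the level of Ager null, and the groups overlapped. The differences from WT were 0.31 ± 0.14 in Ager null (adjusted p = 0.204), 0.27 ± 0.15 in Myd88 null and -0.06 ± 0.15 in double null. The other 2 probe sets of Cpt1a gave -0.19 and -0.31 for Ager null against WT, so the sign depended on the probe set.

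Cpt2 read 11.26, 11.09, 11.42, 11.14 and 11.20 in WT, and from 11.29 over a median of 11.54 to 11.87 in Ager null. It was 11.02, 11.35, 11.55 and 11.80 in Myd88 null and 11.45, 10.97, 11.30 and 11.49 in double null. The groups overlapped, and Ager null against WT gave 0.35 ± 0.15 (adjusted p = 0.178). Slc25a20, whose start is shown above, lay between 11.54 and 12.23, with differences from WT of -0.13, 0.01 and -0.04.

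Mitochondrial beta-oxidation was covered by 9 genes with mean levels from 10.46 (Acads) to 13.59 (Acaa2). Its chain-length specific dehydrogenases are Acadvl, Acadl, Acadm and Acads, Hadha and Hadhb encode the subunits of the trifunctional protein, Acaa2 is a thiolase, and Eci1 and Decr1 handle unsaturated chains. Over the 9 genes and 6 pairwise comparisons the differences ran from -0.28 to 0.44. The widest of them belonged to the trifunctional protein.

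Hadha read between 10.89 and 11.08 in WT 1 to 4 and 11.33 in WT 5, and from 11.25 over a median of 11.47 to 11.61 in Ager null. It was 11.15, 11.47, 11.62 and 11.81 in Myd88 null and 11.33, 11.27, 11.30 and 11.38 in double null. The 4 WT livers other than WT 5 were below all other livers, and WT 5 made the groups overlap. Against WT the differences were 0.39 ± 0.11 in Ager null (adjusted p = 0.0722), 0.44 ± 0.12 in Myd88 null (0.0898) and 0.25 ± 0.12 in double null. With the S range as a block the difference of Ager null was 0.10 (adjusted p = 0.785) and that of Myd88 null 0.44 (0.0497, where 1.01% of all tested genes were called). Without Myd88 null 1 they were called, at 0.39 (0.0332) and 0.56 (0.00911), when 4.73% and 11.6% of all tested genes were called. Over 26 alternatives the adjusted p ran from 0.0332 to 0.785 in Ager null and from 0.00911 to 0.31 in Myd88 null.

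Hadhb, the partner subunit, read 12.74, 12.96, 12.94, 13.03 and 13.11 in WT, and from 12.38 over a median of 12.64 to 12.92 in Ager null. It gave -0.28 ± 0.10 in Ager null against WT (adjusted p = 0.134), opposite in sign to Hadha. A second probe set of Hadhb gave 0.14 for the same comparison, so the direction of Hadhb was not settled. Hadha has 1 probe set. The levels in Myd88 null were 12.97, 12.76, 12.73 and 12.82, and in double null 12.84, 12.75, 12.59 and 12.86, and all groups overlapped.

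Acadvl, the dehydrogenase for the longest chains, had 12.10 ± 0.13 in WT (SD, n = 5), 12.35 ± 0.10 in Ager null (n = 6), 12.23 ± 0.23 in Myd88 null (n = 4) and 12.18 ± 0.08 in double null (n = 4). Its difference in Ager null against WT was 0.26 ± 0.10 (unadjusted p = 0.0163 with limma). Acadl and Acadm, for long and medium chains, differed from WT by 0.13 and 0.03 in Ager null and by 0.02 and 0.17 in Myd88 null. Acaa2 read 13.66, 13.52, 13.46, 13.45 and 13.47 in WT and from 13.55 over a median of 13.61 to 13.65 in Ager null. It was 13.50, 13.68, 13.72 and 13.72 in Myd88 null and 13.59, 13.58, 13.59 and 13.58 in double null. The 4 double null livers lay closest together, the groups overlapped, and Myd88 null against WT gave 0.14 ± 0.08. The other enzymes of the group stayed within 1 log2 unit or little more over the 19 livers, Eci1 between 11.35 and 11.85, Decr1 between 12.33 and 12.60 and Acads between 9.95 and 10.95.

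The electrons of beta-oxidation pass through the flavoprotein Etfa and Etfb to the dehydrogenase Etfdh in the inner membrane. Etfdh read 11.46, 11.18, 11.51, 11.28 and 11.27 in WT, and from 11.57 over a median of 11.68 to 11.79 in Ager null. It was 11.07, 11.41, 11.56 and 11.48 in Myd88 null and 11.41, 11.32, 11.36 and 11.38 in double null. Every Ager null liver was above every liver of the other 3 groups, which overlapped among themselves. Against WT the Ager null livers differed by 0.34 ± 0.09 (adjusted p = 0.0647), double null against Ager null gave -0.31 ± 0.10 (0.0902) and Ager null against Myd88 null 0.30 ± 0.10 (0.139).
Etfdh was called in Ager null against WT without WT 3 (0.38, adjusted p = 0.045) and without Myd88 null 1 (0.34, 0.0263). Of all tested genes, 2.76% and 4.73% were called in these settings, against 1.26% with all arrays. Within S 13 to 20, the 6 Ager null livers exceeded the only WT liver by 0.41, and Etfdh with the S range as a block had 0.33 (0.245), the highest adjusted p of 26 alternatives. Etfa and Etfb had differences in Ager null against WT of 0.00 ± 0.07 and -0.00 ± 0.10. The Etfa value, for the gene whose start is printed above, had an SD of 0.06 between livers of 1 genotype.

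Of the peroxisomal genes, Ehhadh is the bifunctional enzyme of straight chains, Hsd17b4 that of branched chains, Acaa1a and Acaa1b are thiolases and Eci2 is an isomerase. Acaa1a read 9.61, 9.67, 9.72, 9.59 and 10.00 in WT, and from 8.86 over a median of 9.20 to 9.47 in Ager null. It was 9.79, 9.87, 9.64 and 9.52 in Myd88 null and 9.58, 9.21, 9.58 and 9.71 in double null. All 6 Ager null livers were below every WT and Myd88 null liver, and they overlapped with double null 2. The differences were -0.54 ± 0.13 against WT (adjusted p = 0.0521), -0.53 ± 0.14 against Myd88 null (0.0696) and, for double null against Ager null, 0.34 ± 0.14 (0.168).
With each array centred on its median, Acaa1a in Ager null against WT was called at -0.58 (adjusted p = 0.0465, where 1.07% of all tested genes were called). It was also called without Ager null 1 (-0.60, 0.0387), Ager null 6 (-0.59, 0.0436), Myd88 null 1 (-0.54, 0.0347) or Myd88 null 4 (-0.54, 0.0427). With these arrays left out, in that order, 1.77%, 1.51%, 4.73% and 2.97% of all tested genes were called. Its second probe set gave -0.05, and the mean of both -0.30 (adjusted p = 0.105). Over 26 alternatives the adjusted p ran from 0.0347 to 0.182, and 5 called it. By the gene order of RefSeq, Acaa1a is the next gene after Myd88 on chromosome 9, and Acaa1b lies 6 genes before Myd88. Next to the deleted gene, Acaa1a and Acaa1b differed by -0.01 ± 0.15 and 0.04 ± 0.14 in Myd88 null against WT. The thiolase genes are close paralogs, and whether a probe set picks up both was not tested. The 4 other peroxisomal genes overlapped between all groups. Over the 19 livers Ehhadh lay between 11.25 and 12.34, Acaa1b between 13.85 and 14.45, Hsd17b4 between 12.27 and 12.90 and Eci2 between 12.40 and 12.95.

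The omega-oxidation and thioesterase genes varied widely between livers of 1 genotype. Cyp4a14, an omega-hydroxylase and a classic target of PPAR-alpha, had 10.78 ± 0.60 in WT (SD, n = 5), 11.24 ± 1.74 in Ager null (n = 6), 11.31 ± 1.01 in Myd88 null (n = 4) and 11.01 ± 0.21 in double null (n = 4). In Ager null it split between 2 livers at 8.68 and 9.42 and 4 livers from 11.97 to 12.90, and the labels give no group that divides them. Acot2, a mitochondrial acyl-CoA thioesterase, read 5.96, 5.90, 5.42, 5.69 and 6.37 in WT and from 5.04 over a median of 5.55 to 5.69 in Ager null. It was 5.69, 6.35, 5.87 and 7.33 in Myd88 null and 5.90, 4.97, 5.42 and 6.40 in double null, with Myd88 null 4 the highest and the groups overlapping. Ager null against Myd88 null gave -0.84 ± 0.29 (adjusted p = 0.167), and double null against Myd88 null -0.64 ± 0.32, or -0.30 without Myd88 null 4. With the S range as a block Acot2 was the 1 member called in Ager null against Myd88 null (adjusted p = 0.0119), where 4.53% of all tested genes were called. The only Myd88 null liver in the S range of the Ager null arrays is Myd88 null 4, from which the 6 Ager null livers differed by -1.85.

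Ketone body synthesis was represented by Bdh1, which interconverts acetoacetate and beta-hydroxybutyrate. It lay between 11.62 and 12.23 and differed from WT by 0.25 ± 0.12 in Ager null, 0.09 ± 0.13 in Myd88 null and 0.13 ± 0.13 in double null (unadjusted p = 0.0482, 0.48 and 0.312 with limma).

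Among the fasting-responsive genes, Pdk4 blocks glucose oxidation by phosphorylating pyruvate dehydrogenase. It read 9.55, 9.59, 8.45, 11.53 and 10.62 in WT, and from 7.72 over a median of 9.27 to 9.77 in Ager null. It was 7.29, 10.80, 8.65 and 12.56 in Myd88 null and 11.72, 7.52, 7.10 and 7.37 in double null. Double null 1 was over 4 log2 units above the other double null livers, and the groups overlapped. Double null against WT gave -1.52 ± 0.98, with an interval from -3.59 to 0.55, and -2.62 without double null 1 (adjusted p over 26 alternatives from 0.347 to 0.999). Vnn1, a pantetheinase that PPAR-alpha induces, read 11.05, 10.73, 11.01, 11.28 and 11.08 in WT and from 9.37 over a median of 10.67 to 10.92 in Ager null. It was 10.54, 11.05, 11.69 and 11.69 in Myd88 null and 11.41, 10.26, 11.13 and 11.02 in double null. The groups overlapped, with -0.69 ± 0.29 in Ager null against WT and -0.90 ± 0.31 in Ager null against Myd88 null (adjusted p = 0.154 for the latter). Ager null 2 and 3 read 9.67 and 9.37 for Vnn1, and the other Ager null livers from 10.63 to 10.92. The same livers were the low ones for Cyp4a14. Angptl4, a secreted inhibitor of lipoprotein lipase that lies 67 genes from Ager on chromosome 17, differed from WT by -0.18 ± 0.26 in Ager null.

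**Figure D2:**
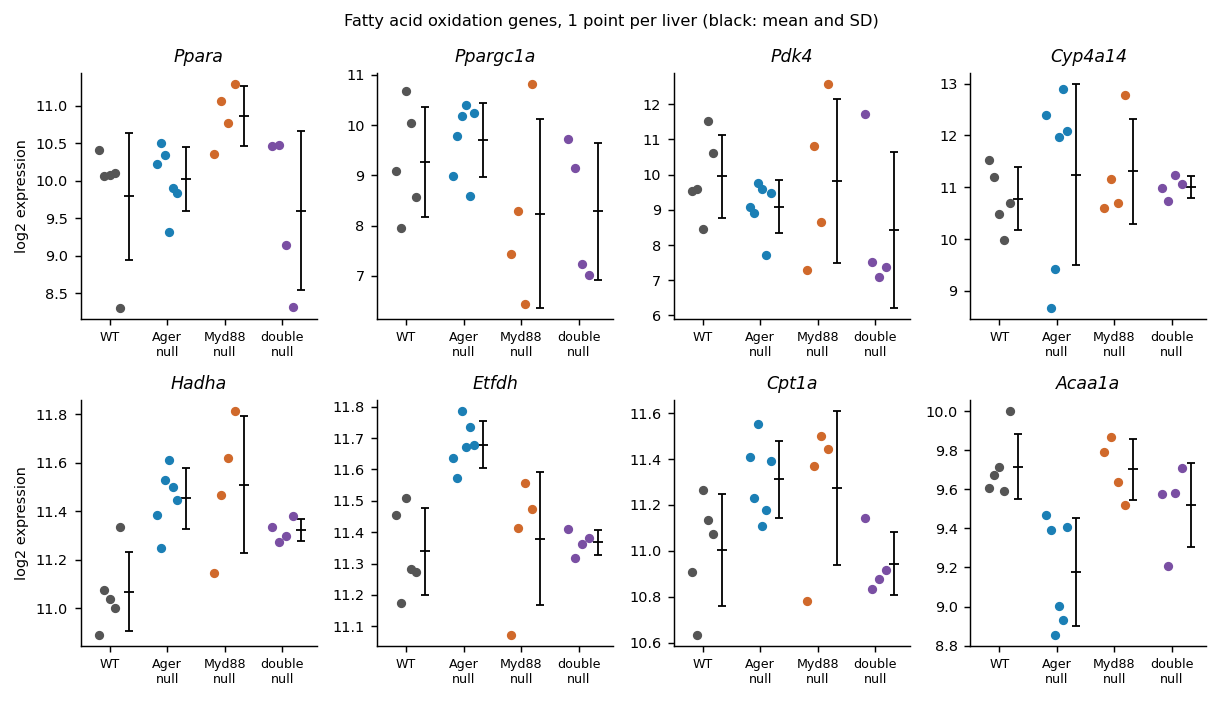
Log2 expression (y axis) of 8 genes in each liver by genotype (x axis), with black marks for the group mean and bars of 1 SD. Ppara, Ppargc1a, Pdk4 and Cyp4a14 spread over several log2 units within a genotype, while Etfdh shows the 6 Ager null livers (11.57 to 11.79) above all others and Acaa1a shows them (8.86 to 9.47) below all WT livers.

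The spread between livers of 1 genotype differed widely among these genes. Of the 32 genes, 22 had an SD under the median of all tested genes, and their median SD was 0.185 against 0.273. The pooled SD within genotype of Pdk4, 1.61, was the largest of the 8515 tested genes, Ppargc1a (1.25) ranked 8 and Cyp4a14 (1.15) ranked 12. Ppara was at 0.71 (percentile 97.6), Slc22a5 at 0.58 (94.8), Vnn1 at 0.51 (91.6) and Acot1, a cytosolic thioesterase, at 0.49 (90.5). At the other end stood Etfa with 0.06 (percentile 0.423), Acaa2 with 0.07 (0.846) and Fabp1 (1.19). In all, 7 of 32 genes were above the 90th percentile and 10 below the 10th. High-level genes vary less on these arrays, and among genes with a mean over 10 the median SD was 0.159 for the 26 members and 0.169 for all 1942.

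**Figure D3:**
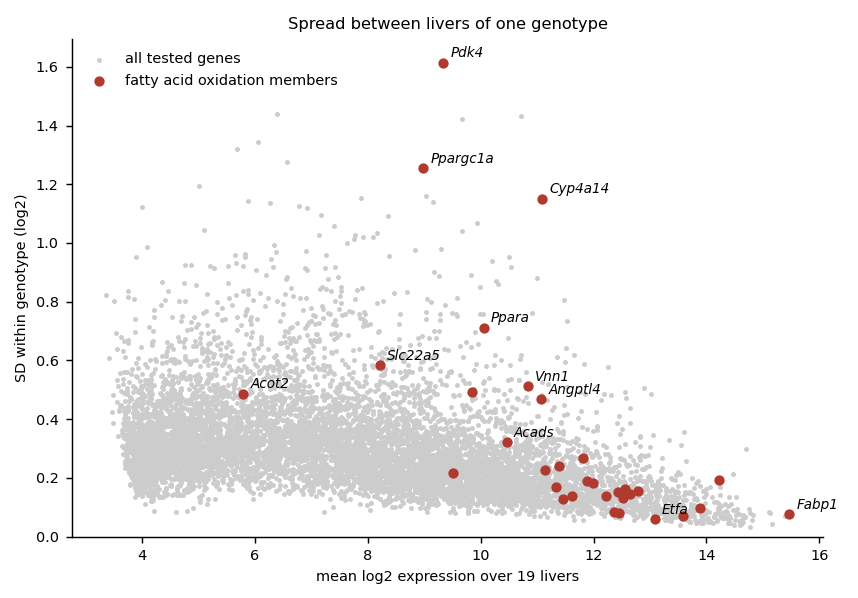
SD within genotype (y axis, log2) against mean log2 expression over the 19 livers (x axis) for all tested genes (grey) and the 32 fatty acid oxidation genes (red). Pdk4 is the highest point at 1.61, and Etfa and Fabp1 lie at the lower edge.

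In the interaction, where both single losses are compared with the double loss, 5 genes had an unadjusted p under 0.05. These were Hadha (-0.57 ± 0.17, adjusted p = 0.0632), Cpt1a (-0.64 ± 0.21, 0.0834), Etfdh (-0.35 ± 0.14, 0.13), Ppara (-1.50 ± 0.61, 0.134) and Cpt2 (-0.48 ± 0.22, 0.18). Cpt1a gave only -0.24 ± 0.31 and -0.05 ± 0.34 on its other probe sets, and -0.31 (adjusted p = 0.422) on the mean of its probe sets. In all 5, on the probe set used, the mean of each single null was above WT. The double null mean was below both single nulls, by as little as 0.01 for Etfdh against Myd88 null. The count turned on Myd88 null 1, in which Hadha, Cpt1a, Cpt2, Acadvl and Etfdh were each the lowest of the 4 Myd88 null livers. The mean level of the hepatocyte markers was also lowest of the 19 livers in Myd88 null 1 (14.26) and highest in Myd88 null 4 (14.53), and its part in the result was not tested. Without Myd88 null 1, 5 genes were called, namely Hadha (-0.70, adjusted p = 0.00786), Cpt1a (-0.80, 0.00918), Etfdh (-0.45, 0.0191), Cpt2 (-0.61, 0.0488) and Acadvl. Over all genes 1739 were then called in place of 205, or 20.4% of those tested. Without Myd88 null 3, Myd88 null 4 or double null 3, each in turn, 0 of 32 and 0 of all 8515 genes were called in the interaction. Hadha was at -0.47 without Myd88 null 4 (adjusted p = 0.145), the array that stood apart. With the S range as a block 0 of 32 and 0 of all genes were called.

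Members also varied together between livers of 1 genotype. After the group means were removed, 496 pairs of the 32 genes had a median Pearson correlation of 0.22 over 19 livers, against 0.02 for all pairs of tested genes, and r was 0.7 or more in 5.04% of pairs against 1.59%. All pairs share the same arrays, and the pairs of all tested genes were not matched to the members for level. Myd88 null 1 was below its group mean in 27 of 32 genes and double null 2 in 29. The part of such shifts of whole livers in the correlations was not tested. Acadvl and Hsd17b4, a mitochondrial and a peroxisomal enzyme, had r = 0.89 (permutation p = 0.00012 with livers permuted within genotype, 0.0129 adjusted over the 496 pairs) and Spearman's rho = 0.89 (p = 7e-05, 0.031 adjusted), with r = 0.81 without Myd88 null 1 and 4, the livers farthest from the median. Within S 1 to 6, which holds Myd88 null 1, and S 13 to 20, which holds Myd88 null 4, r was 0.97 and 0.86. For the livers of S 7 to 12 it was not computed.
The carnitine importer Slc22a5 and Eci2 had r = 0.84 (permutation p = 7e-05, 0.0129 adjusted) and rho = 0.84 (p = 0.00024, 0.031 adjusted), and r = 0.77 without double null 1 and Myd88 null 4. Slc22a5 and Cpt1a, the steps that bring in carnitine and use it, had r = 0.81 (permutation p = 0.00038, 0.0209 adjusted) and rho = 0.79 (p = 0.00018, 0.031 adjusted), and r = 0.80 without the same livers. In all, 10 pairs passed on both r and rho, every one positive. How many pairs of all tested genes would pass in the same way was not tested. Neither Ppara nor Ppargc1a was in any of the 10 pairs, and the same held for many other members, among them Hadha, Etfdh and Fabp1.

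**Figure D4:**
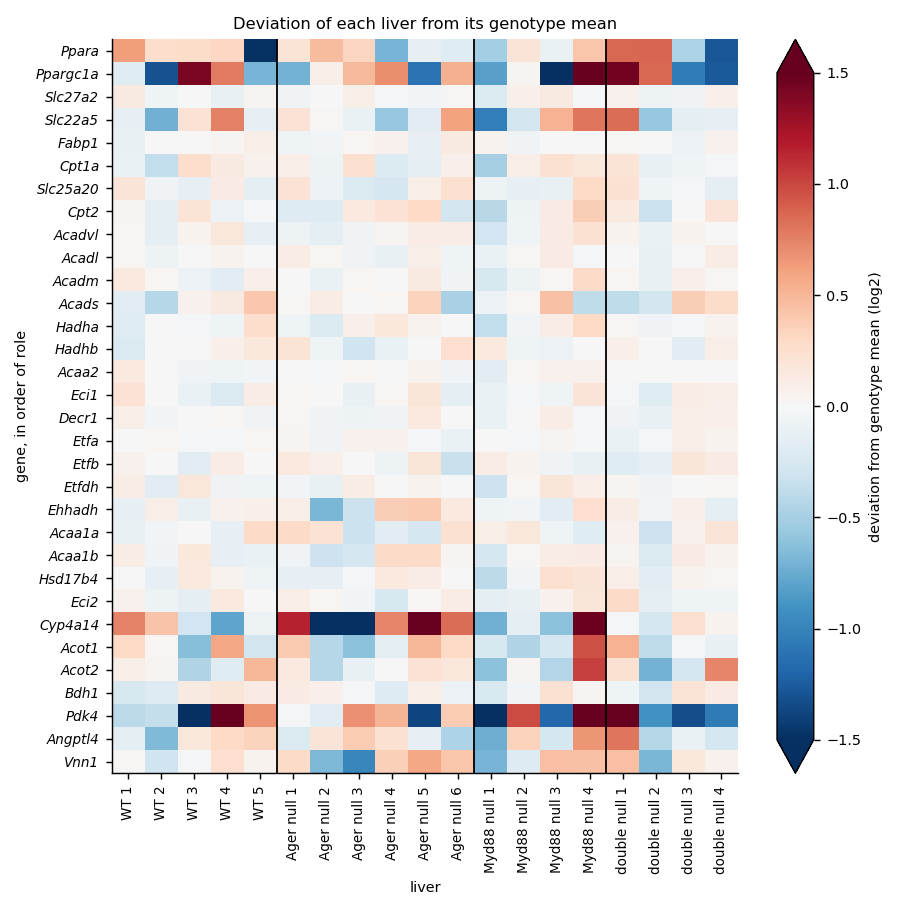
Deviation of each liver (x axis) from its genotype mean in log2 (colour, limited to -1.5 and 1.5) for the 32 tested genes (y axis, in order of role), with vertical lines between genotypes. Ppargc1a, Cyp4a14 and Pdk4 carry the strongest colours, Myd88 null 1 is below its group mean in 27 of 32 rows and double null 2 in 29, while Myd88 null 4 is above it in 23.

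Another 95 genes of lipid oxidation, listed by pathway, gave the surroundings of the 34, and 74 of them were tested. In Ager null against WT 1 was called higher and 0 lower, where 1.26% of all tested genes were called. In Myd88 null and double null against WT it was 0 (0.399% and 0.317% of all tested genes). Double null against Ager null had 0 higher and 2 lower (2.44%), and double null against Myd88 null 0 and 1 (0.153%). Ager null against Myd88 null had 1 and 1 (1.26%), and the interaction 0 and 3 (2.41%). The counts were not tested against these shares. Of 18 tested genes of fatty acid synthesis 0 were called in any of the 7 comparisons with limma, and 7 of them had an unadjusted p under 0.05 in the interaction, all negative (38.9%, against 15.6% of all tested genes in that direction). The median of the 18 there was -0.36, against -0.02 over all genes.

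Rxra, the DNA-binding partner of PPAR-alpha, read 9.77, 9.75, 9.97, 9.95 and 9.85 in WT, and from 10.15 over a median of 10.42 to 10.60 in Ager null. It was 9.98, 10.59, 10.66 and 11.14 in Myd88 null and 10.35, 10.13, 9.85 and 9.83 in double null. Every liver of both single nulls was above every WT liver, while double null overlapped WT. Its interaction was -1.08 ± 0.25 (adjusted p = 0.0366), a call that was lost in 13 of 26 alternatives, with values from -1.28 to -0.40 and adjusted p from 0.00321 to 0.363. The differences from WT were 0.53 ± 0.16 in Ager null (adjusted p = 0.0834) and 0.73 ± 0.18 in Myd88 null (0.0638).

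Lpin1, a phosphatidate phosphatase that also works as a coactivator of PPAR-alpha, read 12.12, 11.91, 12.74, 12.44 and 11.80 in WT and from 12.59 to 13.18 in Ager null. It was 11.82, 12.64, 12.73 and 13.07 in Myd88 null and 12.28, 11.93, 11.76 and 12.09 in double null. Double null did not overlap Ager null, and Lpin1 fell by 0.90 between them (± 0.21, adjusted p = 0.0409, lost in 13 of 26 alternatives). Its interaction of -1.26 ± 0.31 (adjusted p = 0.0444) was lost in 17 of 26. G0s2, an inhibitor of the triglyceride lipase that frees fatty acids for oxidation, read 8.37, 5.66, 5.61 and 6.35 in double null against 8.85 to 10.96 in WT and 9.25 to 12.01 in Myd88 null. Double null overlapped neither of these, and did overlap Ager null (7.91 to 10.38). G0s2 fell by 2.64 in double null against Ager null (± 0.68, adjusted p = 0.0487, lost in 19 of 26). Double null against Myd88 null gave -4.24 ± 0.75 (adjusted p = 0.0254, lost in 7 of 26). The interaction of G0s2 was -3.82 ± 0.98 (adjusted p = 0.0491, lost in 17 of 26).

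Slc16a1, the transporter by which ketone bodies and lactate cross the cell membrane, read 10.28, 10.13, 9.97, 10.30 and 9.96 in WT and from 10.35 over a median of 10.75 to 11.01 in Ager null. The 2 groups did not overlap, and Slc16a1 rose by 0.60 ± 0.14 in Ager null (adjusted p = 0.048), a call lost in 22 of 26 alternatives, with values from 0.32 to 0.68. Pdk1, an isoform of the kinase family of Pdk4, read 10.85 to 11.09 in the 4 Myd88 null livers against 10.06 to 10.42 in Ager null. The groups did not overlap, and Ager null minus Myd88 null was -0.70 ± 0.13 (adjusted p = 0.0152). The call was lost in 3 of 26 alternatives, namely the mean of probe sets and without Myd88 null 2 or Myd88 null 4, with adjusted p from 0.00733 to 0.0647 over the 26. Hacl1, which shortens branched acids in peroxisomes, was 12.07, 12.11, 11.83 and 11.71 in Myd88 null against 12.20 to 12.93 in Ager null, a difference of 0.61 ± 0.15 (adjusted p = 0.046, lost in 16 of 26).

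Of the genes with the smallest p-values that were not called, Cd36, a fatty acid translocase, differed by -1.26 ± 0.36 in Ager null against WT (adjusted p = 0.0711), opposite in sign to Slc16a1. Acox2, the peroxisomal oxidase of branched chains, differed by 0.48 ± 0.13 (0.0598), with no overlap between these groups. Ncoa1, a coactivator of nuclear receptors, differed from WT by 0.73 ± 0.28 in Ager null and 0.91 ± 0.31 in Myd88 null (0.145 and 0.14), and Acsl3, an acyl-CoA synthetase, by -0.67 ± 0.22 in Myd88 null (0.13). Pex11a, which drives peroxisome division, differed by -0.86 ± 0.28 in double null against Myd88 null (0.222), and Slc27a4, a fatty acid transporter, by 0.42 ± 0.22 in double null against WT (0.639).

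**Figure D5:**
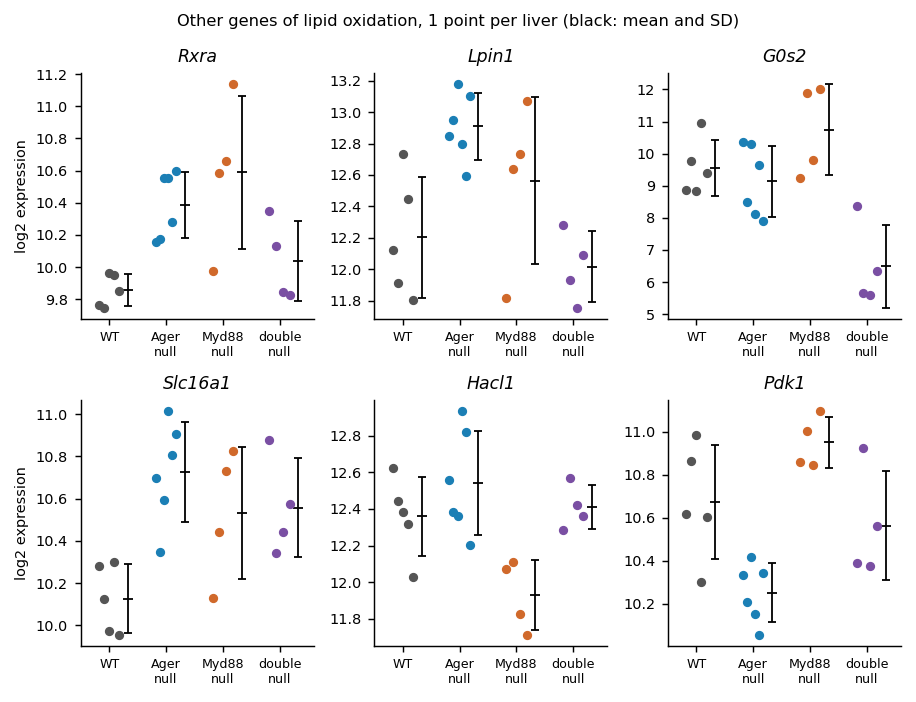
Log2 expression (y axis) of 6 other lipid oxidation genes in each liver by genotype (x axis), with black marks for the group mean and bars of 1 SD. Rxra is above all WT livers in both single nulls and overlaps WT in double null, and G0s2 is lowest in double null (5.61 to 8.37).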

How the data were processed

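The log2 values that the authors deposited for each probe set of the 19 arrays come from GCRMA 2.16, per the submitters' processing notes, and were used unaltered. Any further filter is not stated in these sources. Groups and replicate numbers were read from sample titles, and each array was taken as 1 animal because the labels speak of RNA from each mouse.

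Of 45101 probe sets, 34945 carried 1 gene symbol, 932 several and 9160 none, and only the first were used. The probe set with the highest mean stood for each of 18193 genes, and 8515 genes over log2 4 on at least 4 arrays were tested. The 4 groups were fitted together with limma 3.58.1 in R 4.3.3, two-sided, with Benjamini-Hochberg adjustment over the 8515 genes of a comparison and calls at 0.05. The scripts were tested on simulated data. The members and gene lists were chosen with earlier results of these data known.

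Values by liver (for the 6 Ager null livers their range, mostly with the median) are given for Ppara, Ppargc1a, called members, the 3 members with the smallest p per comparison, and members with an unadjusted p under 0.05 in the interaction or in 3 pairwise comparisons. Other pathway genes are named where called or among the 3 smallest p of a comparison. Cyp4a14, Acadvl, Fabp1, Etfa and other members given by mean or range are described for their role or spread. Alternatives were quantile normalization, median centring, no filter, a floor at log2 4, the mean of probe sets, the S range and the replicate number as blocks, and leaving out each array. The number of arrays limits the precision.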

Additional observations from a re-analysis of the deposited data

Results flagged for a closer look

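In 18 genes and 72 gene-by-group sets of values, 3 livers lay far from the rest of their group by Dixon's criterion, which chance flags in about 1 of 20 sets. They were Acaa2 in Myd88 null 1 (13.5), Pdk4 in double null 1 (11.72) and Ppara in WT 5 (8.31). The effect of Myd88 loss differed between the Ager backgrounds by the interaction test of limma for Rxra (-1.08, adjusted p = 0.0366), Lpin1 (-1.26, 0.0444) and G0s2 (-3.82, 0.0491), none of them among the 34 genes. The calls were lost in 13, 17 and 17 of 26 alternatives, in that order.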

How the results depend on the processing

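The number of tested members called was 0 in all 7 comparisons under quantile normalization, no filter, the floor at log2 4 and the mean of probe sets. Median centring called 1 in Ager null against WT (Acaa1a, with 1.07% of all tested genes called) and 1 in Ager null against Myd88 null (Etfdh, 1.68%, or 143 genes in place of 107). Blocking on the S range called 1 in Myd88 null against WT (Hadha, 1.01%, or 86 genes in place of 34) and 1 in Ager null against Myd88 null (Acot2, 4.53%, or 386 in place of 107). With 1 array left out the count ran from 0 to 3 in Ager null against WT, 0 to 2 in Myd88 null against WT, 0 to 1 in double null against Ager null and in Ager null against Myd88 null, and 0 to 5 in the interaction, and it was 0 throughout in double null against WT and against Myd88 null. The share of all genes called then ran from 0.188% to 4.73% in Ager null against WT, 0.117% to 11.6% in Myd88 null against WT, 0.211% to 4.32% in double null against Ager null, 0.0235% to 5.24% in double null against Myd88 null, 0.211% to 0.399% in double null against WT, 0.352% to 2.1% in Ager null against Myd88 null and 0% to 20.4% in the interaction. The highest share came without Myd88 null 1 in the first 4 of these and in the interaction. The cause was not tested. No value changed sign and remained called. With the replicate block 0 members were called in all 7 comparisons. Arrays of the same replicate number had correlations of their deviations from -0.30 to 0.47 (25 pairs, median 0.05). Arrays of different numbers ran from -0.45 to 0.44 (109 pairs, median 0). Of 19 arrays, 3 correlated best with their own number. The numbers thus showed no clear pairing of the mice, though so few arrays cannot exclude it.

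Over all genes, the interaction had 205 calls, 37 with the replicate block, 76 without the filter, 0 under the S block and 1739 without Myd88 null 1. It had 0 without Myd88 null 3, Myd88 null 4 or double null 3, 2 without double null 4 and 10 without Myd88 null 2, with 24 to 474 when another array was left out. Median centring moved the median difference of all genes in Myd88 null against WT from 0.07 to -0.05 and its calls from 27 higher and 7 lower to 5 and 7. In Ager null against WT it moved them from 71 and 36 to 50 and 41. Under the S block the members' median in the interaction was 0.04 in place of -0.18.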
